A study of Mus musculus with 51 samples.

Results

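The genes of the HoxD cluster (Hoxd1, Hoxd3, Hoxd4, Hoxd8, Hoxd9, Hoxd10, Hoxd11, Hoxd12 and Hoxd13) and the flanking gene Lnpk were followed in forelimb buds, hindlimb buds and whole mouse embryos. Members were taken by name, and a gene was measured where the array annotation gave it at least 1 probe set with that symbol and no other. Of the 10 genes listed, 9 were measured, out of 18194 genes in all, through 13 of the 34958 probe sets that carry 1 symbol. Hoxd4, a gene of the 3′ part of the cluster, was not analysed here, since the 2 probe sets that list it also list Hoxd3. Total RNA from FVB mice was hybridised to 51 Affymetrix mouse genome arrays in 14 groups labelled by tissue and embryonic day. Forelimb buds were sampled daily between E9.5 and E13.5 (3, 5, 4, 5 and 5 arrays), and hindlimb buds daily between E10.5 and E13.5 (4, 5, 5 and 5 arrays). Intact whole embryos, which hold the limb buds together with every other tissue, were sampled at each of the 5 stages on 2 arrays. Each limb sample came from the buds of 1 embryo and the replicates of a stage came from the same litter, so stage and litter cannot be told apart and p-values measure the spread between litter mates.

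Hox genes encode homeodomain transcription factors that give cells their position along the body axis. In tetrapods the HoxD genes are switched on in the order in which they lie, first at the 3′ end (Hoxd1) and last at the 5′ end (Hoxd13), and in the limb bud they act in an early phase that patterns the upper arm and forearm and a late phase that patterns the digits. Enhancers on either side of the cluster drive these phases, and Lnpk, which encodes the endoplasmic reticulum protein lunapark, lies next to the cluster on its 5′ side, where the digit enhancers also act on it.

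Values are log2 intensities, so a difference of 1 is 2-fold, and a gene with several probe sets is given as their mean. Up-regulated and down-regulated are used of a gene whose fold change reached 2 or greater and whose Benjamini-Hochberg adjusted p over all 18194 genes, from 1 limma fit of all 14 groups, was under 0.001. Levels of different genes come from different probes and are not comparable, so each gene is set only against its own levels elsewhere.

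In the forelimb, 3 of the 9 measured genes (Hoxd8, Hoxd9 and Hoxd10, from the middle of the cluster) were up-regulated over whole embryo at E9.5, where 2.08% of all genes were. Hoxd11, Hoxd12, Hoxd13 and Lnpk, on the 5′ side, were first up-regulated at E10.5, where 10.49% of all genes were up-regulated. The forelimb means of Hoxd8 and Hoxd9 were highest at E9.5, those of Hoxd10 and Hoxd11 at E10.5, that of Hoxd12 at E11.5, that of Hoxd13 level at E11.5 and E12.5 (11.04 at each), and that of Lnpk at E12.5. Of the 2 Hoxd13 probe sets, 1440626_at was highest at E11.5 in forelimb and 1422239_at at E12.5. In the hindlimb, sampled from E10.5, all 7 of these genes were up-regulated at the first stage measured, where 9.77% of all genes were. The highest hindlimb means of Hoxd12 (E11.5), Hoxd13 (E12.5) and Lnpk (E12.5) came after those of Hoxd8 to Hoxd11 (E10.5). Lnpk, though, differed little between E12.5 (7.97) and E11.5 (7.96). Hoxd1 and Hoxd3, at the 3′ end, were not up-regulated over whole embryo in either limb at any stage.

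Sorted by the lower end of their spans on chromosome 2 in the RefSeq annotation (assembly GRCm38.p6), the genes were Lnpk, Evx2, Hoxd13, Hoxd12, Hoxd11, Hoxd10, Hoxd9, Hoxd8, Hoxd3, Hoxd4 and Hoxd1. The HoxD genes all lay on the plus strand and Lnpk on the minus strand. The Hoxd3 span (74711993 to 74748271) contains that of Hoxd4 (74721978 to 74729160), so this sorting does not settle the order of Hoxd3 and Hoxd4. RefSeq promoter entries on the same build were found for 10 of the 10 listed genes (11 entries, Hoxd11 having 2). Each entry was searched on both strands, from 250 bases before its own start site to 50 after it, for the TATA box TATAAA, the sequence CAATAAA preferred by posterior Hox proteins, the GC box CCGCCC, and the Hox-Pbx composite sequence TGATNNAT. For Lnpk, Hoxd10 and the Hoxd11 entry printed below, the start site lies inside the annotated span of the gene. Of 32851 promoters of the same 300-base length, 13.6% held TATAAA, 4.6% held CAATAAA, 35.7% held CCGCCC and 8.85% held TGATNNAT. Among the 10 genes, 2 held TATAAA (Hoxd4 and Hoxd13), 1 held CAATAAA (Hoxd4), 5 held CCGCCC (Hoxd1, Hoxd9, Hoxd11, Hoxd13 and Lnpk) and 1 held TGATNNAT (Hoxd11). The 250 bases before the start site of the entry are shown for 5 genes whose time course the account below turns on, the early gene Hoxd9, the E10.5 gene Hoxd11 (the entry with motifs), the later genes Hoxd12 and Hoxd13, and Lnpk, which follows them. They are printed 5′ to 3′ on the strand of the gene, and capitals mark a match to 1 of the 4 motifs on either strand. In the order shown they lie at chr2:74697513-74697762 (Hoxd9, plus strand), chr2:74682073-74682322 (Hoxd11, plus strand), chr2:74674763-74675012 (Hoxd12, plus strand), chr2:74667975-74668224 (Hoxd13, plus strand) and chr2:74578949-74579198 (Lnpk, minus strand), and a match is a description of the letters, not a measured binding site.
Hoxd9: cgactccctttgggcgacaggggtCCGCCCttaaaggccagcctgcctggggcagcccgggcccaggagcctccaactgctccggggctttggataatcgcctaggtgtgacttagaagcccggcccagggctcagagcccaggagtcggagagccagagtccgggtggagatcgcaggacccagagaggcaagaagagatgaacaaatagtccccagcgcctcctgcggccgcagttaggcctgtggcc
Hoxd11: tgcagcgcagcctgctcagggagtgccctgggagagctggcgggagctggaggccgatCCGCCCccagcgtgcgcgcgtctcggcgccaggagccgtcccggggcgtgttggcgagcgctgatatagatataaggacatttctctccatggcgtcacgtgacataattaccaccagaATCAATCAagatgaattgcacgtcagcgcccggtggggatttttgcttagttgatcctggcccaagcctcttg
Hoxd12: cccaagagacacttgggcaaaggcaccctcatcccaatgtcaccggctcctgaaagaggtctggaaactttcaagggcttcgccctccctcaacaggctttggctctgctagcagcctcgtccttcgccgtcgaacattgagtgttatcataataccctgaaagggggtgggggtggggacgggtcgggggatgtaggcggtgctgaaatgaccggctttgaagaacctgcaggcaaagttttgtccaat
Hoxd13: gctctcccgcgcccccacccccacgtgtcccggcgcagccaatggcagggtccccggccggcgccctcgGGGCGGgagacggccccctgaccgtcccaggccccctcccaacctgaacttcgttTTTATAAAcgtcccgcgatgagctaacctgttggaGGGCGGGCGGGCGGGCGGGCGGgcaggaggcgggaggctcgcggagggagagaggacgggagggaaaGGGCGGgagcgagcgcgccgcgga
Lnpk: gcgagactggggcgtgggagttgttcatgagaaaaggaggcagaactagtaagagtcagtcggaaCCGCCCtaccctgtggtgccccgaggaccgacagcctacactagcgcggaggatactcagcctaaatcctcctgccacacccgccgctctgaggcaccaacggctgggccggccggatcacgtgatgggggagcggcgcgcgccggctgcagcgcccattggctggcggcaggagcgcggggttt

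The TATAAA of Hoxd13 was read on both strands of the same 8 capital letters, and its CCGCCC matches, all on the opposite strand, numbered 7 and partly overlapped. The capitals of Hoxd11 are 1 CCGCCC and 1 TGATNNAT on the opposite strand. The printed stretch was richest in G and C in Hoxd13, at 74.4%, against 66.0% in Lnpk, 65.2% in Hoxd9, 60.4% in Hoxd11 and 55.6% in Hoxd12. The other entry of Hoxd11, not printed, was 44.8% G and C and held no motif match.

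Limb identity followed the labels: Tbx5, the forelimb factor, lay at 196.4 to 983.8 in forelimb and 34.57 to 77.07 in hindlimb on the linear scale, and the hindlimb factors Tbx4 and Pitx1 summed to 65.39 to 169.9 in forelimb and 1435 to 3006 in hindlimb. The arrays fell into 2 sets by technical measures, and the division runs through several comparisons. In whole embryo and E9.5 forelimb, 13 arrays in all, the bacterial spike Dap read 10.7 to 13.3 and the 3′ probe set of Gapdh exceeded its 5′ probe set by 1.48 to 2.85 (log2). On the 38 limb arrays from E10.5 the same measures were 3.04 to 3.63 and -0.10 to 0.16. Limb over whole embryo from E10.5, and forelimb E10.5 over E9.5, therefore compare the 2 sets. Tissue or stage cannot be told apart from array set there. E9.5 forelimb over whole embryo, forelimb over hindlimb, and limb stages from E10.5 stay within a set. Even so, Dap read 12.80 to 13.29 in E9.5 forelimb, against 11.61 and 11.74 in E9.5 whole embryo. The Gapdh difference was 1.48 to 1.73 in that forelimb group, against 2.03 and 2.85. At E9.5, too, tissue cannot be told apart from these measures. On 1 array, hindlimb E10.5 replicate 3, markers of spinal cord and neurons stood apart: Sox2, a neural progenitor factor, read 9.04 there, against 2.98, 3.18 and 4.01 on the other hindlimb E10.5 arrays, and the 5 markers of the list summed to 1146 on the linear scale, against 134.5, 159 and 184.1. Replicate 5 of hindlimb E11.5 and replicate 5 of forelimb E12.5 carry a second label that names another group. Their levels of the limb-type genes Tbx4, Tbx5 and Pitx1 (10.05, 5.75 and 10.65 on the first, 6.77, 9.77 and 5.52 on the second) lay with the group of their title, which was used.

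**Figure D1:**
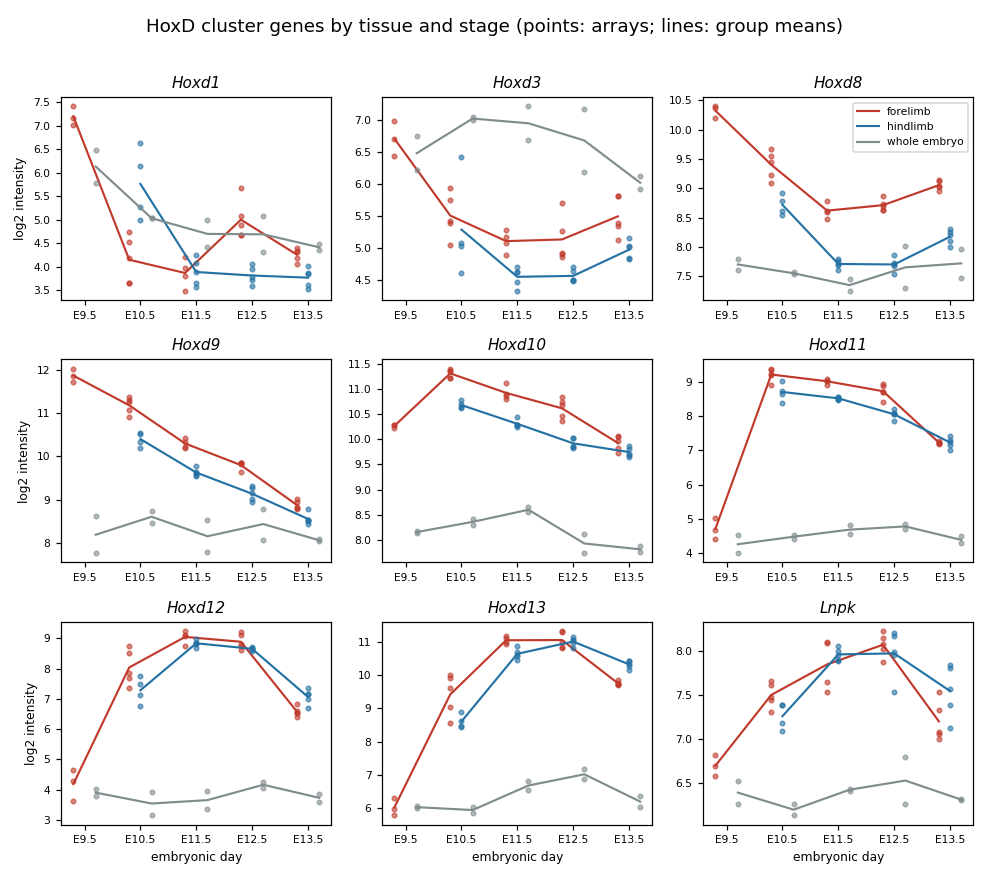
Log2 intensity (y axis) of each of the 9 measured genes against embryonic day (x axis) in forelimb (red), hindlimb (blue) and whole embryo (grey), with 1 point per array and lines through the group means. Hoxd9 starts high in E9.5 forelimb and declines, while Hoxd11, Hoxd12 and Hoxd13 are near their whole-embryo level at E9.5 and high from E10.5.

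Hoxd9, of the paralogue group that acts on the upper arm, read 11.72, 12.04 and 11.87 in E9.5 forelimb, against 8.61 and 7.76 in whole embryo. The 3 forelimb arrays all lay above both whole-embryo arrays, and Hoxd9 was up-regulated by 3.69 ± 0.18 (log2 ± SE, 12.9-fold, limma adjusted p = 1.53e-20). Its forelimb means were 11.88 ± 0.16, 11.19 ± 0.19, 10.30 ± 0.11, 9.80 ± 0.10 and 8.88 ± 0.10 (SD, n = 3, 5, 4, 5 and 5) from E9.5 to E13.5, and its hindlimb means 10.40 ± 0.16, 9.63 ± 0.09, 9.13 ± 0.16 and 8.55 ± 0.13 (n = 4, 5, 5 and 5) from E10.5. Each forelimb stage lay below the one before with no overlap of arrays, yet none of these steps reached 2-fold (log2 changes of -0.69, -0.89, -0.50 and -0.92). The whole-embryo means lay between 8.06 and 8.60 with no order by stage. Over the 4 stages from E10.5 the excess over whole embryo was 2.59, 2.15, 1.37 and 0.82 in the forelimb, the last below the fold limit, and 1.80, 1.48, 0.70 and 0.50 in the hindlimb, where only the earlier pair was called. Without whole-embryo E12.5 replicate 2 the hindlimb E12.5 difference was 1.06 and called.

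Hoxd8, the next gene towards the 3′ end, which acts with its paralogues in the trunk skeleton, read 10.20, 10.40 and 10.37 in E9.5 forelimb, against 7.80 and 7.61 in whole embryo. The groups were well apart, with a difference of 2.62 ± 0.15 (adjusted p = 3.36e-18, limma). Forelimb means were 10.32 ± 0.11, 9.40 ± 0.24, 8.62 ± 0.13, 8.71 ± 0.10 and 9.05 ± 0.07 from E9.5 to E13.5, so that the lowest level came at E11.5 and E12.5, whose arrays overlapped. Hoxd8 was up-regulated over whole embryo at all 5 forelimb stages (2.62, 1.85, 1.27, 1.06 and 1.33), but in the hindlimb at E10.5 only (1.17, 0.36, 0.05 and 0.45). The E12.5 forelimb call was lost without whole-embryo E12.5 replicate 1 (0.70), and quantile normalization of the log2 values left 0.84 at forelimb E11.5, 0.79 at forelimb E12.5 and 0.74 at hindlimb E10.5, all uncalled.

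The probe sets of Hoxd8 did not move together. At probe-set level, 2.35% to 13.26% of all 45101 probe sets were called higher in the 9 limb over whole embryo comparisons. Probe set 1431099_at was up-regulated at 5 of 5 forelimb stages and 3 of 4 hindlimb stages, against 2 of 5 and 0 of 4 for 1433638_s_at. In E11.5 hindlimb 1433638_s_at read 7.05, 7.05, 6.89, 6.93 and 6.94, against 7.37 and 7.88 in whole embryo, while 1431099_at read 8.55, 8.46, 8.32, 8.48 and 8.44, against 7.14 and 7.01. The hindlimb arrays thus lay below whole embryo with the first probe set (-0.65) and above it with the second (1.37). From E9.5 to E10.5 forelimb the change was -1.68 (called) for 1433638_s_at and -0.16 for 1431099_at, so the onset at E9.5 is shared and the later level over whole embryo depends on the probe set.

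Hoxd10, a gene of both the early and the late phase, read 10.23, 10.28 and 10.28 in E9.5 forelimb, against 8.14 and 8.18 in whole embryo. No array of either group came near the other, and the difference was 2.11 ± 0.11 (adjusted p = 3.07e-19, limma). At E10.5 the forelimb arrays read 11.36, 11.34, 11.40, 11.20 and 11.22, all above the E9.5 arrays, a step of 1.04 ± 0.09 that was called, across the 2 array sets. Over the next 3 stages the forelimb means were 10.92 ± 0.14, 10.61 ± 0.20 and 9.93 ± 0.14, and the hindlimb means 10.68 ± 0.07, 10.31 ± 0.07, 9.92 ± 0.09 and 9.75 ± 0.09 from E10.5 to E13.5. Hoxd10 was up-regulated over whole embryo in all 9 comparisons, by 2.11 to 2.94 in the forelimb and 1.70 to 2.31 in the hindlimb.

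Fitted on the 5 arrays of E9.5 alone, the differences of Hoxd8, Hoxd9 and Hoxd10 had limma adjusted p-values of 0.00104, 0.00305 and 0.00111 and were not called. The differences themselves keep their size in that fit, since the group means are the same. In these whole tissues a lower level can mean fewer cells that express a gene or less RNA per cell, which cannot be told apart.

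Hoxd11, a regulator of the forearm bones, read 4.43, 4.68 and 5.03 in E9.5 forelimb, against 4.52 and 4.00 in whole embryo. The groups overlapped and the difference was 0.45 ± 0.15 (adjusted p = 0.0175, limma). One day later the forelimb read 9.24, 9.39, 9.21, 8.93 and 9.34, against 4.42 and 4.54 in whole embryo. The E10.5 forelimb arrays stood 4.74 ± 0.14 above whole embryo (26.8-fold) and 4.51 ± 0.12 above the E9.5 forelimb (22.8-fold), both between the array sets. The lower readings stood at the 31.9 percentile of all genes in E9.5 forelimb and at the 26.7 percentile in E10.5 whole embryo, so these folds rest on faint readings. The forelimb mean at E9.5 was 4.39% of the E10.5 mean on the linear scale. From E10.5 to E13.5 the means were 9.22 ± 0.18, 9.02 ± 0.07, 8.73 ± 0.20 and 7.23 ± 0.03 in the forelimb and 8.71 ± 0.26, 8.52 ± 0.04, 8.06 ± 0.12 and 7.23 ± 0.15 in the hindlimb. Neighbouring forelimb stages overlapped up to E12.5, and the E13.5 arrays (7.23, 7.29, 7.21, 7.23 and 7.20) all lay below those of E12.5 (8.71, 8.94, 8.88, 8.72 and 8.42), a down-regulation of -1.50 ± 0.10 within 1 array set. The array median was also higher at E13.5 than at E12.5 in forelimb (5.40 to 5.41 against 5.28 to 5.34). In hindlimb it was 5.37 to 5.42 against 5.27 to 5.32. The 3′ minus 5′ difference of Actb was 0.361 to 0.425 against 0.198 to 0.229 in forelimb. In hindlimb it was 0.362 to 0.624 against 0.233 to 0.266. Dap and Gapdh stayed in the ranges of the set. The part of these shifts in the falls to E13.5 was not tested.

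Hoxd12, another gene of the late phase, read 4.28, 4.64 and 3.63 in E9.5 forelimb, against 4.02 and 3.77 in whole embryo, and the groups overlapped (0.28 ± 0.28). At E11.5 the forelimb arrays read 9.24, 9.09, 8.76 and 9.10, against 7.85, 8.74, 7.69, 7.37 and 8.52 at E10.5. The E11.5 arrays lay just above the highest E10.5 array, with a step of 1.01 ± 0.20 at the fold limit, and this call was lost when any of forelimb E10.5 replicates 1, 3 and 4 or E11.5 replicates 1, 2 and 4 was left out (0.84 to 1.00). In the hindlimb, E11.5 arrays read 8.69, 8.84, 8.96, 8.85 and 8.82, against 7.14, 7.49, 6.75 and 7.75 at E10.5. These hindlimb stages were clearly separate (1.55 ± 0.20). By E13.5 the level was 6.59, 6.39, 6.55, 6.55 and 6.84 in the forelimb, against 8.79, 9.10, 9.19, 8.73 and 8.60 at E12.5. This was the sharpest late decline among the members in the forelimb (-2.30 ± 0.19), and the hindlimb fell by 1.59 over the same day, to 7.06 ± 0.25 at E13.5, against 8.65 ± 0.05 at E12.5.

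Hoxd13, the most 5′ gene and a regulator of digit formation, read 5.99, 5.79 and 6.32 in E9.5 forelimb, against 6.01 and 6.06 in whole embryo. The groups overlapped, with a difference of -0.01 ± 0.22. At E11.5 the forelimb arrays read 10.92, 11.15, 10.97 and 11.11, against 9.62, 9.89, 9.03, 8.55 and 9.98 at E10.5. The stages did not overlap, with a step of 1.62 ± 0.16, and every E10.5 array lay above every E9.5 array. In the hindlimb the E11.5 arrays read 10.59, 10.45, 10.86, 10.55 and 10.70, against 8.48, 8.62, 8.44 and 8.88 at E10.5. That step of 2.03 ± 0.16 (adjusted p = 1.94e-13, limma) was, for Hoxd13, its only called one in the hindlimb. At E12.5 the means were 11.04 ± 0.24 in forelimb and 11.00 ± 0.13 in hindlimb, and at E13.5 they were 9.75 ± 0.06 in forelimb and 10.32 ± 0.12 in hindlimb. Over whole embryo Hoxd13 was up-regulated by 3.46, 4.35, 4.02 and 3.55 in the forelimb and by 2.65, 3.94, 3.98 and 4.11 in the hindlimb from E10.5 to E13.5.

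The 2 probe sets of Hoxd13 shared the E10.5 onset but differed in whole embryo. With 1440626_at the E11.5 whole embryos read 9.14 and 8.67, against 7.22 and 7.27 at E10.5, a called step of 1.66, where 0.663% of all probe sets were called higher. With 1422239_at they read 4.53 and 4.42 at E11.5, against 4.48 and 4.83 at E10.5. The stages overlapped for the second probe set, and it gave the larger limb excess (5.87, against 2.83 for 1440626_at, in E11.5 forelimb). The forelimb decline at E13.5 was -1.69 with 1422239_at and -0.89 with 1440626_at, and only the larger was called.

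**Figure D2:**
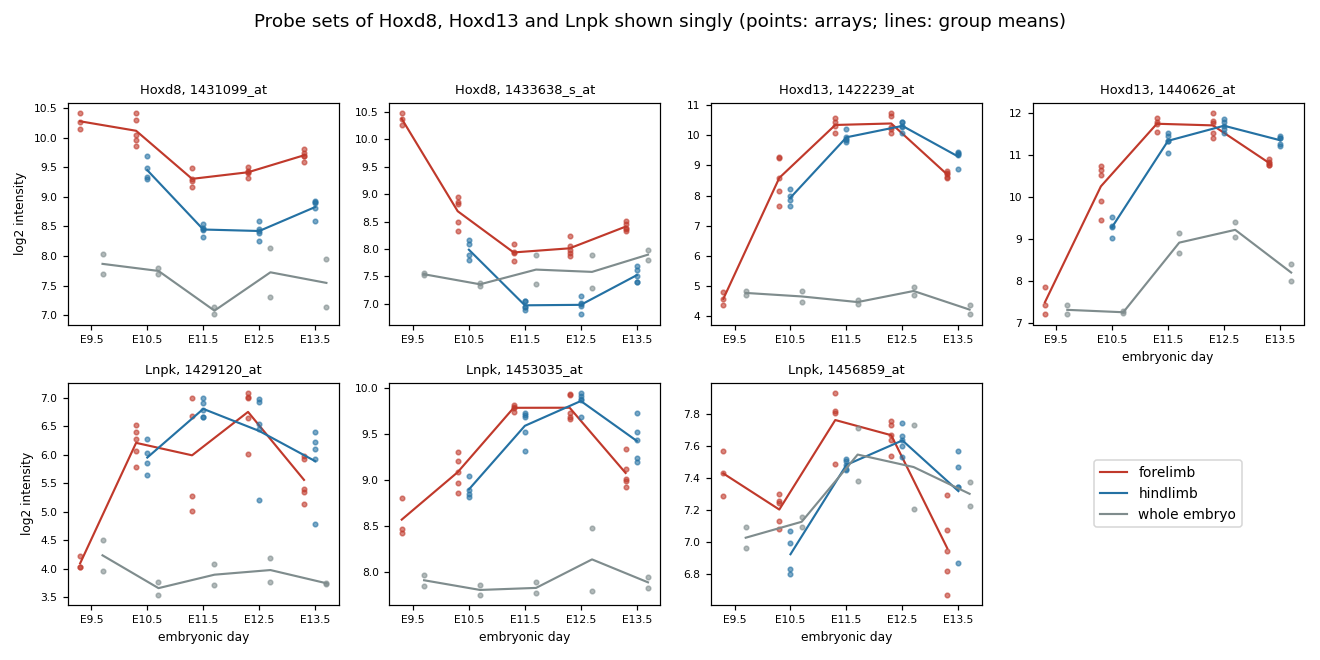
Log2 intensity (y axis) by embryonic day (x axis) for the single probe sets of Hoxd8, Hoxd13 and Lnpk, in forelimb (red), hindlimb (blue) and whole embryo (grey), with points for arrays and lines for group means. Whole embryo lies apart from the limbs from E10.5 with 1431099_at, 1422239_at, 1429120_at and 1453035_at, and among them with 1456859_at.

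Lnpk read 7.30, 7.66, 7.45, 7.48 and 7.61 in E10.5 forelimb, against 6.26 and 6.13 in whole embryo. The groups were apart, and Lnpk was up-regulated by 1.30 ± 0.17 (adjusted p = 6.05e-09, limma), a smaller excess than those of Hoxd11 to Hoxd13. Its forelimb means were 6.70 ± 0.12, 7.50 ± 0.14, 7.85 ± 0.30, 8.07 ± 0.13 and 7.20 ± 0.23 from E9.5 to E13.5, and its hindlimb means 7.26 ± 0.15, 7.96 ± 0.07, 7.97 ± 0.27 and 7.54 ± 0.30 from E10.5. Neighbouring forelimb stages from E10.5 to E12.5 overlapped, and none of the steps reached 2-fold. Lnpk was called at E10.5, E11.5 and E12.5 in the forelimb (1.30, 1.42 and 1.54) and at all 4 hindlimb stages (1.06, 1.54, 1.44 and 1.23). The E10.5 hindlimb call was lost under quantile normalization (0.84) and without whole-embryo E10.5 replicate 2, where it stood at 1.00. Of its 3 probe sets, 1429120_at and 1453035_at were called in all limb groups from E10.5, and 1456859_at in none. At forelimb E12.5, 1453035_at read 9.66, 9.93, 9.73, 9.93 and 9.68, against 7.80 and 8.48 in whole embryo, while 1456859_at read 7.75, 7.67, 7.64, 7.73 and 7.54, against 7.21 and 7.73.

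Hoxd3, a gene of the 3′ part that patterns the upper neck vertebrae, was down-regulated in 6 of the 9 limb over whole embryo comparisons, where 3.44%, 3.64% and 5.44% of all genes were in forelimb and 3.41%, 3.95% and 5.43% in hindlimb. In E11.5 hindlimb it read 4.47, 4.70, 4.33, 4.63 and 4.62, against 6.69 and 7.22 in whole embryo. The groups were far apart (-2.40 ± 0.27, adjusted p = 3.33e-10, limma). The 6 calls, at E10.5, E11.5 and E12.5 in each limb, ranged from -1.52 to -2.40, while E9.5 forelimb (6.71, 6.98 and 6.45, against 6.22 and 6.75 in whole embryo) overlapped whole embryo and E13.5 was not called in either limb (-0.53 and -1.05), where 8.12% and 8.35% of all genes were. The hindlimb E13.5 difference missed the call narrowly (adjusted p = 0.0011, limma). It was called after quantile normalization (-1.14), on its own groups, without the 2 arrays of conflicting label and in 9 of the 51 fits without a single array. The forelimb E12.5 difference was -1.06 and not called without whole-embryo E12.5 replicate 2. On their own groups alone the forelimb E12.5 and hindlimb E10.5 differences had limma adjusted p-values of 0.00108 and 0.00797 and were not called. Hoxd3 also fell by 1.20 between E9.5 and E10.5 forelimb, a call lost without forelimb E9.5 replicate 2 (-1.07). Its highest hindlimb reading, 6.43, was that of E10.5 replicate 3, the array with neural markers, against 4.62, 5.03 and 5.08 on its litter mates, and without it the hindlimb E10.5 difference was -2.12, against -1.74 with it. The 5 neural markers summed to 128.8 to 275.5 in forelimb and 134.5 to 1146 in hindlimb, against 2385 to 9983 in whole embryo, and 4 of the 5 were lower on every limb array than on every whole-embryo array. Their part in the Hoxd3 difference was not tested.

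Hoxd1, the last gene at the 3′ end, which acts in pain-sensing neurons, was not called over whole embryo in any of the 9 comparisons (-0.88 to 1.07). In E9.5 forelimb it read 7.16, 7.41 and 7.02, against 6.49 and 5.77 in whole embryo. The forelimb arrays were higher, by 1.07 ± 0.32, but the limma adjusted p was 0.00857. At E10.5 the forelimb arrays read 4.17, 3.64, 4.52, 4.73 and 3.66, and the step from E9.5, -3.05 ± 0.26, was the largest fall of any member between stages, measured across the 2 array sets. The E10.5 forelimb mean, at the 25.4 percentile of all genes, was faint. Within 1 set, hindlimb fell by 1.87 over the day after E10.5, to 3.65, 4.24, 3.57, 4.08 and 3.88, against 5.00, 6.14, 6.63 and 5.27 at E10.5. The E11.5 arrays all lay below the E10.5 arrays. The highest E10.5 value belongs to replicate 3, and without it the step was -1.58 and still called.

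Over the 81 pairs of a member and a limb over whole embryo comparison, 52 were up-regulated and 6 down-regulated. Over the 5 forelimb stages 3, 7, 7, 7 and 5 of 9 genes were up-regulated, beside 2.08%, 10.49%, 11.67%, 8.52% and 5.54% of all genes. Over the 4 hindlimb stages 7, 6, 5 and 5 were, beside 9.77%, 11.76%, 7.11% and 6.10% of all genes. The median difference over the 9 genes was 0.45 at E9.5 and 2.59 at E10.5 in the forelimb and 1.80 at E10.5 in the hindlimb, against 0.08, 0.03 and 0.04 over all genes. Without hindlimb E10.5 replicate 3 the counts were 52 and 7. The largest differences were those of Hoxd12 (5.40 in forelimb and 5.18 in hindlimb at E11.5, 42.1-fold and 36.4-fold), and its whole-embryo arrays lay between 3.14 and 4.26, and its 5 whole-embryo group means stood at the 9.1 to 19.3 percentile of all genes, so these folds rest on a faint reading.

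**Figure D3:**
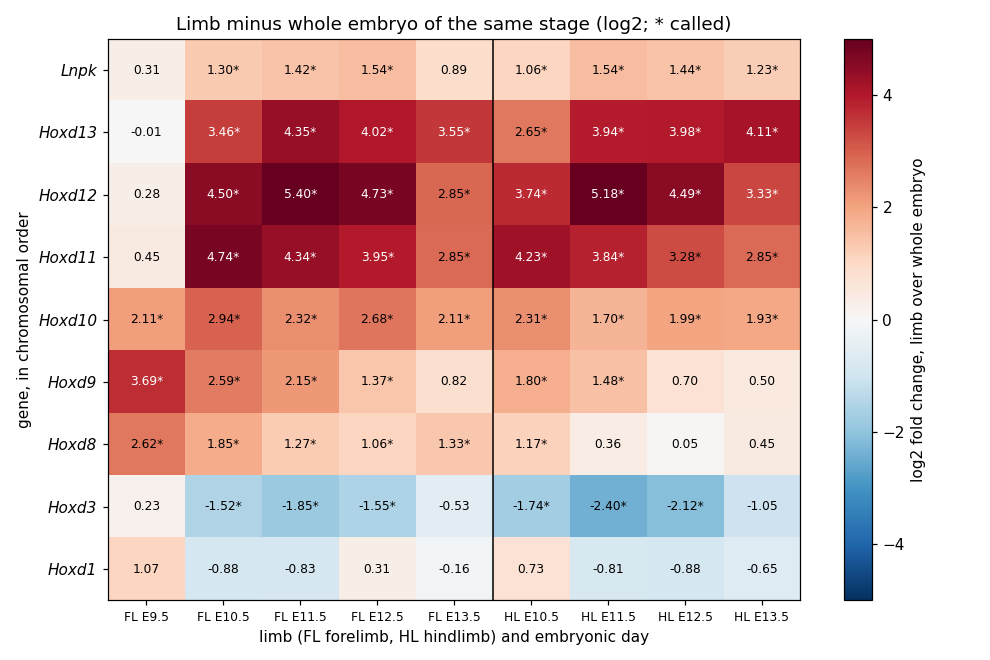
Log2 difference between limb and whole embryo of the same stage for each gene (rows, in chromosomal order with Lnpk at the top) and each limb group (columns, forelimb then hindlimb by embryonic day), with red for higher and blue for lower in limb and a star for a call. At E9.5 the starred cells are Hoxd8, Hoxd9 and Hoxd10, and in each column from E10.5 those of Hoxd11 to Hoxd13 are the darkest.

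The next comparison asked whether the members differed between forelimb and hindlimb, whose development runs later. At the same stage 29 of 36 differences were above 0, with only 2 called higher and 1 lower. The median over all genes lay between -0.03 and 0.01 in these comparisons. The 36 pairs repeat 9 genes over 4 stages, so their signs are not independent, and the share of all genes above 0 was not computed. The members called were Hoxd1 and Hoxd8 in forelimb E12.5, where 0.462% of all genes were higher, and Hoxd1 in forelimb E10.5, where 0.148% were lower. The other background shares of calls at the same stage were 0.418%, 0.313% and 0.236% higher at E10.5, E11.5 and E13.5, and 0.0989%, 0.0440% and 0.0495% lower at the last 3 stages. Hoxd8 read 8.74, 8.64, 8.62, 8.87 and 8.70 in E12.5 forelimb, against 7.73, 7.87, 7.71, 7.67 and 7.53 in hindlimb. Every forelimb array was above every hindlimb array, and the difference of 1.01 ± 0.10 sat on the fold limit: it was 0.97 without forelimb E12.5 replicate 4 or hindlimb E12.5 replicate 5, and 0.95 after quantile normalization. At E10.5, E11.5 and E13.5 it was 0.68, 0.91 and 0.88, with the limbs apart each time.

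Hoxd9 and Hoxd10 were likewise higher in forelimb at E10.5, E11.5 and E12.5 with no overlap of arrays, but by under 2-fold (Hoxd9 by 0.78, 0.67 and 0.67, Hoxd10 by 0.63, 0.61 and 0.69), and by 0.32 and 0.18 at E13.5. Hoxd11 differed by 0.51, 0.50 and 0.67 over the first 3 stages and not measurably at E13.5, where both limbs had a mean of 7.23. For Hoxd12 and Hoxd13 the sign of the difference turned: it was 0.75 and 0.81 at E10.5 and -0.48 and -0.56 at E13.5, none of them called. Hoxd13 at E13.5 read 9.75, 9.70, 9.73, 9.72 and 9.86 in forelimb, against 10.42, 10.27, 10.43, 10.14 and 10.32 in hindlimb. These arrays did not overlap (adjusted p = 0.017, limma). Lnpk lay between -0.34 and 0.24, its arrays overlapping at all 4 stages, and Hoxd3 between 0.22 and 0.57.

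Hoxd1 went both ways, largely on faint readings. Its group means stood at the 25.4 and 48.2 percentile of all genes in E10.5 forelimb and hindlimb. At E12.5 they stood at 36.6 and 17.0, beside 19.0 in E11.5 forelimb and 16.8 in E13.5 hindlimb. At E10.5 Hoxd1 read 4.17, 3.64, 4.52, 4.73 and 3.66 in forelimb, against 5.00, 6.14, 6.63 and 5.27 in hindlimb. The hindlimb arrays were all higher (-1.61 ± 0.24, adjusted p = 2.71e-06, limma), and without hindlimb replicate 3 the difference was -1.32 and called. On the groups of this comparison alone its adjusted p was 0.0133. At E12.5 it read 4.68, 4.67, 4.88, 5.08 and 5.67 in forelimb, against 4.05, 3.94, 3.77, 3.70 and 3.58 in hindlimb, a difference of 1.19 ± 0.22 with the groups apart. This second call was lost without forelimb E12.5 replicate 4 or 5 or hindlimb E12.5 replicate 4 or 5 (1.02 to 1.17), and with the 2 arrays of conflicting label grouped by their other label it was 0.52. Hoxd1 also rose by 1.13 between E11.5 and E12.5 forelimb, a call lost without any of forelimb E11.5 replicates 1 to 3 or E12.5 replicates 3 to 5 (0.97 to 1.17).

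Set against the hindlimb one day older, 7 of 27 differences were called higher in forelimb and 1 lower. At E10.5 against hindlimb E11.5 Hoxd8 (1.69 ± 0.10) and Hoxd9 (1.56 ± 0.12) were higher in forelimb and Hoxd13 was lower (-1.21 ± 0.15), where 0.242% of all genes were called higher and 0.747% lower. The Hoxd13 call was lost without forelimb E10.5 replicate 4, where it stood at -0.998, and had an adjusted p of 0.00427 on its own groups. At E11.5 against hindlimb E12.5 Hoxd9 alone was called (1.17 ± 0.13, with 0.192% of all genes called higher and 0.0879% lower), and Hoxd10 stood just under the limit in both of these comparisons (1.00). At E12.5 against hindlimb E13.5 Hoxd1, Hoxd9, Hoxd11 and Hoxd12 were called (1.23, 1.25, 1.50 and 1.82), with 0.676% of all genes called higher and 0.786% lower. Hoxd13 did not differ by 2-fold in the last 2 of these comparisons (0.04 and 0.73).

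**Figure D4:**
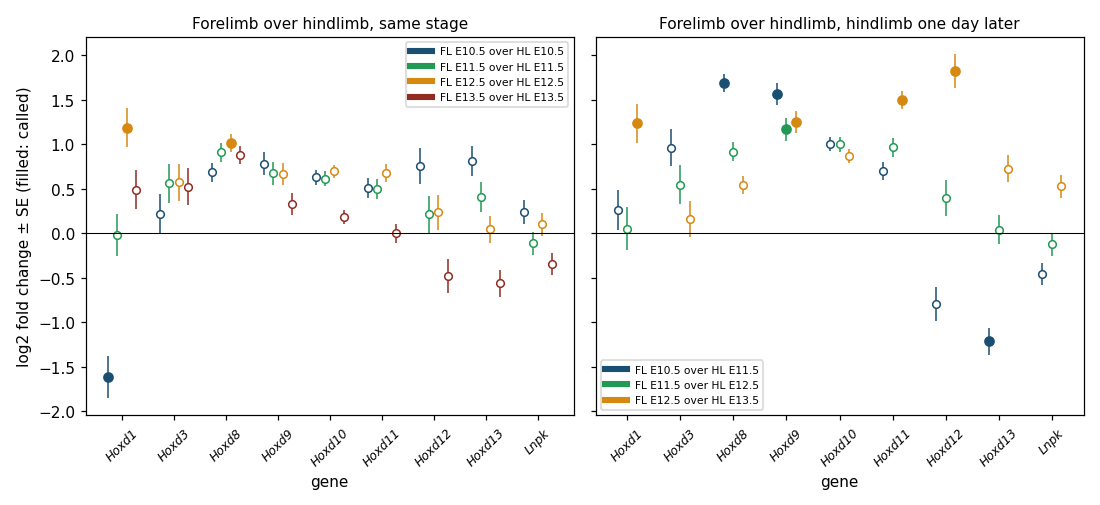
Log2 fold change with its standard error (y axis) of forelimb over hindlimb for each gene (x axis), at the same stage (left) and against the hindlimb one day older (right), with filled points for calls. At the same stage Hoxd8 lies between 0.68 and 1.01, and Hoxd12 and Hoxd13 run down to -0.48 and -0.56 at E13.5.

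Between successive stages of 1 tissue the members were called 9 times higher and 8 times lower in 99 pairs. The forelimb step to E10.5 held 4 of the rises (Hoxd10 1.04, Hoxd11 4.51, Hoxd12 3.85 and Hoxd13 3.38) and 2 of the falls (Hoxd1 -3.05 and Hoxd3 -1.20), where 5.74% of all genes rose and 1.80% fell, and it crosses the array sets. The step to E11.5 held Hoxd12 and Hoxd13 in both limbs (1.01 and 1.62 in forelimb, 1.55 and 2.03 in hindlimb), where 1.71% of all genes rose in forelimb and 1.95% in hindlimb. In hindlimb Hoxd1 and Hoxd8 fell at that step, where 0.368% did, and the Hoxd8 fall of 1.01 was lost without hindlimb E10.5 replicate 2 or 3 or hindlimb E11.5 replicate 3 (-0.98, -0.94 and -0.98). The step to E12.5 held only the rise of Hoxd1 in forelimb, where 0.599% rose, and no member was called in hindlimb, where 0.583% rose. The step to E13.5 held falls of Hoxd11, Hoxd12 and Hoxd13 in forelimb (1.29% of all genes fell) and of Hoxd12 in hindlimb (0.396% fell), and the Hoxd13 fall was not called with its probe set of highest mean alone (-0.89). Technical measures shifted at this step too, as given with Hoxd11. In whole embryo no member was called at any of the 4 steps, where 0.440%, 0.544%, 1.89% and 2.92% of all genes rose and 0.115%, 0.0989%, 0.324% and 0.198% fell. At shares this low the lack of calls says little about the members. It holds for the mean of the probe sets of a gene, since Hoxd13 probe set 1440626_at alone had a called rise to E11.5.

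The change over each shared step was then compared between the limbs. No member was called in 27 tests, where 0.00% to 0.214% of all genes were called in a direction. The nearest was Hoxd1 from E10.5 to E11.5, which changed by -0.28 in forelimb and -1.87 in hindlimb (a difference of 1.59 ± 0.33, adjusted p = 0.00221, limma), called without forelimb E10.5 replicate 4 (1.74) or without hindlimb E10.5 replicate 1 (1.85) or 4 (1.76), and 1.30 without replicate 3. From E12.5 to E13.5 the forelimb changed by -0.69 and the hindlimb by -0.17 for Hoxd10 (difference -0.51, adjusted p = 0.00599) and by -1.50 and -0.82 for Hoxd11 (difference -0.68, adjusted p = 0.00789, limma).

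Genes around and beside the cluster were read from lists. Of 10 neighbours on chromosome 2, 8 were measured. In limb over whole embryo 8 of their 72 pairs were up-regulated and 4 down-regulated, beside 2.08% to 11.76% and 1.61% to 8.35% of all genes in the 9 comparisons. Their median difference in E11.5 forelimb was 0.17, against 0.09 over all genes. Atf2, a transcription factor gene on the Lnpk side, was up-regulated in forelimb E10.5 (1.16) and in hindlimb E10.5, E11.5 and E12.5 (1.04, 1.01 and 1.02), and Chn1, a Rac regulator, at E10.5 and E11.5 in both limbs (1.06 to 1.37). The antisense gene Hoxd3os1, which overlaps Hoxd3, was down-regulated in the same 4 groups as Chn1 was up-regulated (-1.12 to -1.75). Evx2, the homeobox gene next to Hoxd13, and Mtx2, a mitochondrial import gene beyond Hoxd1, were never called. Overlapping loci (Hoxd3 with Hoxd3os1 and Hoxd4, and Hoxd10 with Hoxd11) were not separated further than by the probe annotation.

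All 4 posterior HoxA genes were measured, the paralogues that share limb patterning with HoxD. They were up-regulated in 33 of 36 limb over whole embryo pairs and down-regulated in 0, beside 2.08% to 11.76% and 1.61% to 8.35% of all genes in the 9 comparisons, with a median of 2.07 in E11.5 forelimb, against 0.09 over all genes. At E9.5 forelimb Hoxa9 (1.77) was called, beside 3.69 for its paralogue Hoxd9, and Hoxa11 (1.84) was called, beside 0.45 for Hoxd11, which was not. Hoxa13 was first called at E10.5 (2.38 in forelimb and 1.48 in hindlimb), as Hoxd13 was. At E11.5 Hoxa13 stood 4.02 above whole embryo in forelimb and 4.43 in hindlimb. Forelimb E10.5 against hindlimb E11.5 gave -1.79 for Hoxa13, beside -1.21 for Hoxd13. From E12.5 to E13.5 forelimb Hoxa13 fell by 1.68, and Hoxd13 by 1.29.

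The Hox cofactors, partners with which Hox proteins bind DNA, were up-regulated in 11 and down-regulated in 11 of 63 limb over whole embryo pairs (7 of 8 genes measured), beside the same shares of all genes (2.08% to 11.76% higher and 1.61% to 8.35% lower), with a median of -0.46 in E11.5 forelimb. At forelimb E11.5 Pbx2 (1.63) and Pknox1 (1.23) were higher, and Meis2 (-1.46) and Meis1 (-1.36) lower, than in whole embryo. In forelimb between E9.5 and E10.5, Meis1 and Meis2, which mark the proximal limb, fell by 1.00 and 1.13 and Pbx2 rose by 1.04, where 1.80% of all genes fell and 5.74% rose.

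Posterior limb signalling (11 of 11 genes measured) gave 38 higher and 7 lower of 99 limb over whole embryo pairs, where 2.08% to 11.76% of all genes were called higher and 1.61% to 8.35% lower, and a median of 1.07 in E11.5 forelimb. Shh, the signal of the posterior margin, changed by 2.13 in forelimb between E9.5 and E10.5 and by -2.33 between E10.5 and E11.5, and in hindlimb it fell by 1.85 between E11.5 and E12.5. Hand2, a factor upstream of Shh, rose by 1.68 in forelimb at the step to E10.5 and fell by 1.99 in forelimb and 1.47 in hindlimb at the step to E13.5, the step at which Hoxd12 fell in both limbs. Of the 8 chromatin regulators listed, all measured, 21 of 72 pairs were higher in limb and 0 lower, all from E10.5 and so between the array sets, where 5.54% to 11.76% of all genes were called higher, with a median of 0.19 in E11.5 forelimb. Ctcf, which organises chromatin loops, was 1.92 to 2.30 higher from E10.5 in both limbs, and 1.68 higher in E10.5 than in E9.5 forelimb.

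The genes closest in pattern were found by the Pearson correlation of group means, as a description, with the points sharing array sets and litters. Over 14 groups the nearest to Hoxd11 were Anp32a (0.996), Rabgef1 (0.988), Agpat1, Chchd5 and Mmgt2 (0.987 each), and the nearest to Hoxd13 were Zfp521 (0.987), Mdfi (0.983), Zfp354c (0.982), Setd2 (0.979) and Suco (0.978). Lnpk had Hoxd12 (0.984) as its nearest of all genes, then Mdfi (0.983), Atf2 (0.981), Hoxa13 (0.979) and Zfp90 (0.977). Hoxd9 was nearest to Mta1 (0.963), Sting1 (0.931), Notum (0.927), 4930579H20Rik (0.925) and Tfip11 (0.918). Over the 8 limb groups from E10.5, all of 1 array set, none of the genes just named was again among the first 5 of the same member (0 of 20 pairs). There the nearest were Bicdl2 (0.986), Lbh, Srf, Tnfaip2 and Tango2 for Hoxd9, Poli (0.992), Diaph3, Abcd2, Tcp1 and Tyms-ps for Hoxd11, H2bc21 (0.997), Gmds, Fam13c, Wfikkn2 and Ccng2 for Hoxd13, and Acss2 (0.997), Sgpl1, Zfp157, Mageh1 and Snap47 for Lnpk.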

How the data were processed

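Limb bud and whole-embryo RNA was labelled in 2 cycles of amplification and hybridised to arrays of 45101 probe sets. The authors background-corrected, normalized and summarised the arrays with RMA (version and settings beyond the defaults not given in the sources used here), replaced blemished values of 1 whole-embryo array (E12.5) by those of its replicate, and deposited the result as linear intensity per probe set. RMA pulls the arrays towards 1 common distribution and damps large differences. The deposited log2 values still differed in spread. Their interquartile range was 3.43 to 4.05 in whole embryo and E9.5 forelimb and 3.95 to 4.36 in limb from E10.5. Reading depth has no counterpart here, so the number of arrays limits precision.

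Here log2 was taken, the 34958 probe sets with 1 symbol in the platform annotation were averaged per symbol (932 with several symbols and 9211 with none were left out), and 1 model of 14 groups was fitted with limma 3.58.1 in R 4.3.3 (no covariate, 37 residual degrees of freedom). It gave 9 limb over whole embryo, 7 forelimb over hindlimb and 11 stage comparisons and 3 tests of differing change between limbs. A call needed a fold change of 2 or greater and an adjusted p (Benjamini-Hochberg, over the genes of 1 comparison) under 0.001. The same fit was run on all probe sets singly. On simulated data of 18194 genes, 97% of 100 genes changed by 1.5 (log2) and 100% of 100 changed by 2.5 were called in E10.5 forelimb over whole embryo, and 0 unchanged genes. No change nearer the 2-fold limit than 1.5 was simulated, so these shares do not bear on calls close to that limit. The simulated arrays had independent noise of equal spread in all groups, with no difference between array sets or litters. The count of unchanged genes called therefore does not bear on false calls that such differences could bring.

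Samples were grouped by title. All listed members are named, with up to 4 called genes of largest change per further list and comparison described and the 5 genes nearest in pattern to each of Hoxd9, Hoxd11, Hoxd13 and Lnpk. Evx2, Mtx2 and the step values of single list genes were named after their values were seen. Members and lists were chosen with earlier results of these data known. Alternatives were another normalization, a level filter, another call rule, an intensity trend, 1 probe set per gene, fits on the compared groups alone, a replicate block, the other labels of 2 arrays, and each array left out in turn. Protein sequences were not used here.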

Additional observations from a re-analysis of the deposited data

Results flagged for a closer look

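Each gene was screened for a single array far from the rest in the groups of 4 or 5 arrays, 72 sets in all, and 3 stood out, where chance flags about 1 in 20. Hoxd9 in forelimb E12.5 replicate 5 read 9.63, against 9.83 to 9.85 on the other arrays, and this is 1 of the 2 arrays with conflicting labels. Hoxd9 in hindlimb E13.5 replicate 1 read 8.77, against 8.44 to 8.53. Hoxd10 in hindlimb E11.5 replicate 2 read 10.44, against 10.25 to 10.28.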

How the results depend on the processing

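Of 86 single calls, 19 were lost under at least 1 alternative, and 10 of them in at least 1 of 51 fits without a single array; no called value changed sign. Leaving out each array in turn gave 51 to 53 higher and 6 to 7 lower calls of limb over whole embryo, 7 to 11 higher and 1 to 2 lower of forelimb over hindlimb, 7 to 9 higher and 7 to 8 lower between stages, and 0 to 1 for differing change between limbs. No first stage moved but that of Lnpk in hindlimb (E11.5 in place of E10.5, without whole-embryo E10.5 replicate 2). Whole embryo keeps 1 array in such fits and is assumed to vary as the other groups do.

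Fits on the compared groups alone lost 10 calls, left 0 lower calls of forelimb over hindlimb (2 in the joint fit) and put the first forelimb stage of Hoxd8, Hoxd9 and Hoxd10 at E10.5 in place of E9.5. Quantile normalization lost 6 calls, put Lnpk in hindlimb at E11.5 and left Hoxd8 in hindlimb with no called stage. Keeping genes above the median level gave 0 lower calls of limb over whole embryo (6 with all genes), 1 lower call of forelimb over hindlimb (2) and 5 lower calls between stages (8), because Hoxd1 and Hoxd3 were then not tested. With an adjusted p under 0.05 and no fold minimum there were 11 lower calls of limb over whole embryo. Forelimb over hindlimb then gave 33 higher and 5 lower calls, stages 31 lower, and differing change 3. The share of all genes called under that rule was not computed, so these counts have no background to be read against. Under it the first stage was embryonic day 9.5 for Hoxd1 and Hoxd11 in forelimb and E10.5 for Hoxd1 in hindlimb. Taken as the first stage at or above 50% of the highest mean, onset was E10.5 for Hoxd10 in forelimb and E11.5 for Hoxd12 and Hoxd13 in both limbs. In forelimb, Hoxd10 at E9.5 (48.7%) and Hoxd12 at E10.5 (49.6%) lay just under that level, and Hoxd1, Hoxd3, Hoxd8 and Hoxd9 never reached it in hindlimb. The 2 arrays of conflicting label grouped by their other label cost 5 calls, leaving both out cost 2, and an intensity trend cost 0. Causes were not tested where none is given.

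Forelimb and hindlimb arrays of a stage share replicate numbers, and of 18 same-numbered pairs 9 deviated together (correlation above 0.1, range -0.11 to 0.347). Pairs of differing number were not examined, so these values cannot tell whether the numbers pair embryos. The main fit treated the limbs as unpaired. With the replicate block, 1 same-stage call was higher in forelimb in place of 2, Hoxd1 at E12.5 being lost (adjusted p = 0.00196, limma).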
